A study of Bos taurus with 46 samples.

Results

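The genes of prostaglandin and leukotriene synthesis and prostaglandin E2 reception that were followed here are PTGS1, PTGS2, PTGES, PTGES3, PTGER2, PTGER4, ALOX5, ALOX5AP, LTA4H and LTC4S. They were chosen by symbol, and all 10 were present among the 30675 genes of the count table. RNA of circulating leukocytes was sequenced from 23 pregnant heifers on D55 and again on D105 of gestation, which gave 46 libraries, 1 per heifer and day. Angus crossbred heifers, all synchronized before breeding with progesterone and an injection of prostaglandin F2 alpha, carried fetuses from artificial insemination (AI, n = 8), in vitro produced fetuses of ordinary weight (IVP-Normal, labelled ARTnormal, n = 6) or in vitro produced fetuses above the weight limit for large offspring syndrome (IVP-LOS, labelled ARTLOS, n = 9). The group of a heifer on D55 was given by the fetus she carried on D105, more than 1 embryo was transferred per IVP heifer, and some IVP heifers carried 2 fetuses.

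Prostaglandins and leukotrienes are lipid signals made from arachidonic acid, a fatty acid that phospholipases free from membranes. The cyclooxygenases PTGS1 (constitutive) and PTGS2 (inducible) make prostaglandin H2, terminal synthases such as PTGES turn it into prostaglandin E2, and the receptors PTGER2 and PTGER4 answer prostaglandin E2 by raising cyclic AMP. In granulocytes, monocytes and mast cells ALOX5, held at the membrane by its partner ALOX5AP, makes leukotriene A4, which LTA4H turns into the neutrophil attractant leukotriene B4 and LTC4S into the cysteinyl leukotriene C4.

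Libraries held 18692653 to 24502012 reads on genes (median 22934799.5). Levels are given as CPM (read counts of a gene scaled to the size of the library, with the trimmed mean of M values, TMM, as the scaling), and are compared between samples of the same gene only. A gene was called at an adjusted p (Benjamini-Hochberg over all genes tested, edgeR quasi-likelihood test) of at most 0.05. The library names put all D55 libraries and the D105 libraries of IVP-Normal heifers in a set marked New (29 libraries) and the D105 libraries of AI and IVP-LOS heifers in a set marked BACKUP (17 libraries), so day and set cannot be told apart in the AI and IVP-LOS groups, while the IVP-Normal group held 1 set only. Blood of D55 was drawn in a colder season than blood of D105, and day and season cannot be told apart in any group. The general leukocyte markers PTPRC, CD53, CORO1A and LAPTM5 were present in every library, at 6751 reads or more (lowest for CD53). The neutrophil marker S100A12 was at 3944 reads or more and the platelet transcript PF4 at 1262 reads or more. Other neutrophil markers fell lower, to 3 reads for MMP9 and 2 reads for TGM3, and CD177 had 0 reads in 11 libraries. On D105 the libraries of heifers 604 and 664 stood apart, with 36.1 to 38.0% of reads on no annotated feature against 23.9 to 30.5% in the other 21. The D105 library of heifer 637 stood apart by its neutrophil markers (summed level 12290 CPM, against 5182 CPM or less in every other library).

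ALOX5 and ALOX5AP, which act at the first step of leukotriene synthesis, rose from D55 to D105. ALOX5 was called higher on D105 in all 3 groups, and ALOX5AP in AI and IVP-Normal heifers. PTGS2 was called higher in AI heifers. In AI heifers 3 of the 9 genes tested were called, all higher, where 9.95% of 15248 genes were called and 7.21% were called higher. With heifer as a block, since each heifer was sampled on both days, PTGS2 was not called in AI heifers (adjusted p = 0.0583), which left 2 of 9 genes where 17.1% of all genes were called. In IVP-Normal heifers 2 of 9 were called, both higher, where 2.45% of 15248 genes were called and 2.27% higher. In IVP-LOS heifers 1 of 9 was called, higher, where 0.251% of 15163 genes were called and 0.198% higher. The median log2 fold change of the 9 genes was 0.35, 0.26 and 0.26 in AI, IVP-Normal and IVP-LOS heifers, beside medians of -0.02, -0.03 and 0.01 over all genes tested.

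**Figure D1:**
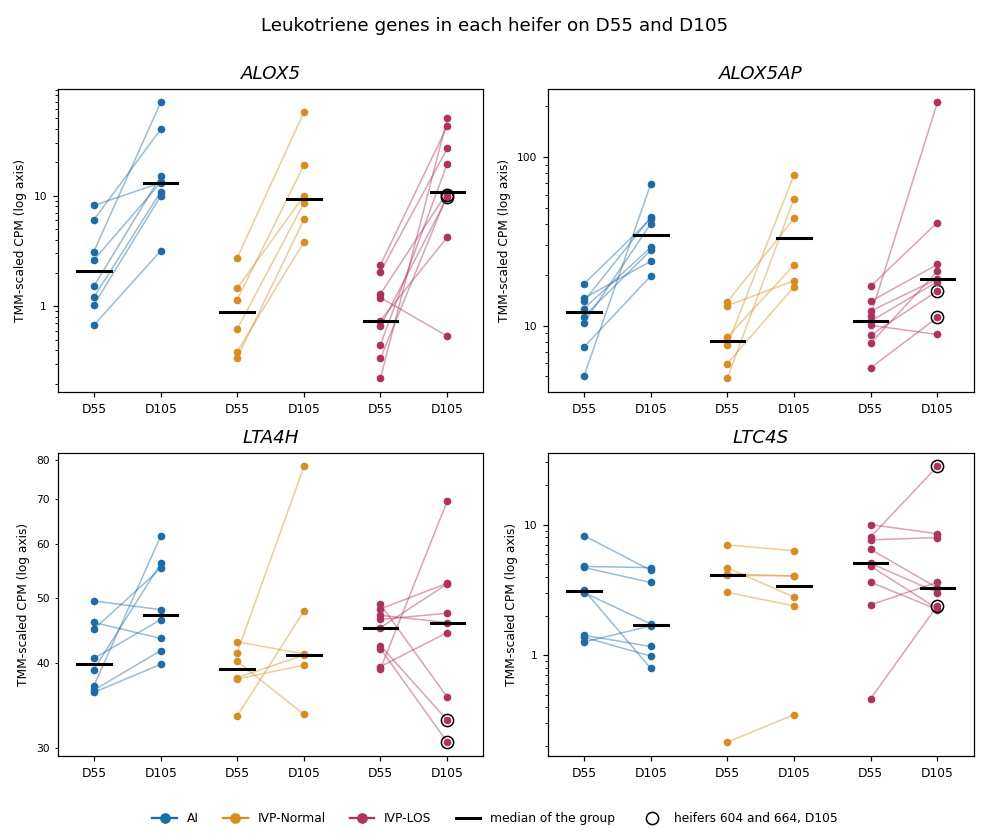
Levels of ALOX5, ALOX5AP, LTA4H and LTC4S (TMM-scaled CPM, log axis) in each heifer on D55 and D105, by group, with a line joining the libraries of the same heifer, a bar at the group median and circles around heifers 604 and 664 on D105. ALOX5 and ALOX5AP were higher on D105 in 22 of 23 heifers each, LTA4H stayed between 30.6 and 78.3 CPM, and LTC4S was highest in heifer 604 on D105 (27.9 CPM).

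ALOX5 encodes 5-lipoxygenase, the enzyme that commits arachidonic acid to leukotrienes. In AI heifers its level on D55 was 0.674 CPM at the lowest, 2.07 at the median and 8.12 at the highest, and on D105 it was 3.17, 13.1 and 69.3 CPM. The ranges of the days overlapped in this group, yet 8 of 8 heifers were higher on D105, by 1.60 to 22.2 times, where 6.96% of all genes tested were higher in every AI heifer. Its log2 fold change was 2.83 ± 0.62 (SE, n = 8 heifers, adjusted p = 0.00593). In IVP-Normal heifers ALOX5 went from 0.342, 0.883 and 2.73 CPM (lowest, median, highest) on D55 to 3.82, 9.27 and 56.8 CPM on D105. The days did not overlap in this group, whose libraries all belong to the set marked New, whereas 1.82% of all genes tested were higher on D105 without overlap there. That made a log2 fold change of 3.95 ± 0.73 (SE, n = 6, adjusted p = 0.0112). In IVP-LOS heifers ALOX5 went from 0.224, 0.743 and 2.36 CPM on D55 to 0.537, 10.7 and 49.7 CPM on D105. Heifer 557 was the only heifer of the 23 with less ALOX5 on D105 (0.537 CPM, 12 reads) than on D55 (1.195 CPM, 30 reads). Heifer 663 held both the lowest D55 value of all (5 reads) and a D105 value of 49.7 CPM. For the 9 IVP-LOS heifers the log2 fold change was 4.22 ± 0.67 (SE, n = 9, adjusted p = 0.00737). Without heifers 604 and 664 it was 4.20 and no longer called (adjusted p = 0.0748), although both heifers were themselves higher on D105 (9.63 and 10.2 CPM, from 0.659 and 0.338 CPM). In IVP-Normal heifers the call was lost without heifer 560 (log2 fold change 4.16, adjusted p = 0.0513).

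ALOX5AP encodes the 5-lipoxygenase activating protein. In AI heifers it went from 5.01, 11.97 and 17.7 CPM (lowest, median, highest) on D55 to 19.7, 34.7 and 69.6 CPM on D105. The days did not overlap in this group, in which 1.84% of all genes tested were higher on D105 without overlap. On the log2 scale it rose by 1.69 ± 0.27 (SE, n = 8, adjusted p = 0.000491). In IVP-Normal heifers the level went from 4.87, 8.10 and 13.8 CPM to 17.0, 33.1 and 78.8 CPM, again without overlap. There the log2 fold change was 2.13 ± 0.41 (SE, n = 6, adjusted p = 0.0130), and it was 1.80 to 2.41 with each heifer left out in turn, with the call lost without heifer 628, 633 or 688 (adjusted p = 0.0597, 0.0797 and 0.0529). In IVP-LOS heifers the level went from 5.62, 10.6 and 17.1 CPM to 8.86, 18.9 and 211 CPM. Heifer 637, whose D105 library held the highest neutrophil marker sum, gave the value of 211 CPM, and the next highest IVP-LOS value was 40.9 CPM. The IVP-LOS log2 fold change of 1.94 ± 0.54 (SE, n = 9) did not pass the test (adjusted p = 0.125), and without heifer 637 it was 0.90 (adjusted p = 0.220). Heifer 557 was again the only heifer with a lower level on D105 (8.86 CPM) than on D55 (10.04 CPM).

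The enzymes that use leukotriene A4 did not pass the test in any group between the days. LTA4H varied little, with all 46 libraries between 30.6 and 78.3 CPM. In AI heifers it went from 36.2, 39.9 and 49.5 CPM on D55 to 39.9, 47.2 and 61.7 CPM on D105, with a log2 fold change of 0.26 ± 0.10 (SE, n = 8, unadjusted p = 0.0156 in the edgeR fit, adjusted p = 0.109). The log2 fold changes of LTA4H in IVP-Normal and IVP-LOS heifers were 0.26 ± 0.17 and 0.05 ± 0.13 (SE). LTC4S, the synthase of leukotriene C4, was lower on D105 in 17 of 23 heifers, yet its log2 fold changes were -0.55 ± 0.45, -0.23 ± 0.61 and 0.34 ± 0.54 (SE) in AI, IVP-Normal and IVP-LOS heifers, none past the test. The spread between heifers was wide on both days, from 0.216 CPM (heifer 519) upward to 8.25 CPM in heifer 609 and 10.0035 CPM in heifer 602 on D55 and from 0.351 to 27.9 CPM on D105.

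**Figure D2:**
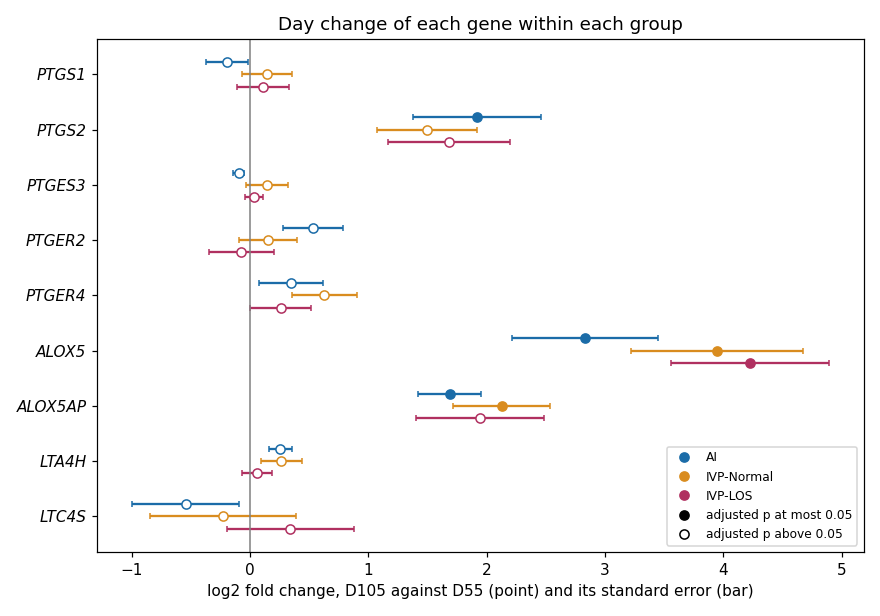
Log2 fold change of each of the 9 genes tested between D105 and D55 (x axis) with its standard error, by group (n = 8 AI, 6 IVP-Normal and 9 IVP-LOS heifers), with filled points at an adjusted p of at most 0.05. ALOX5 stands farthest to the right (2.83 to 4.22), followed by ALOX5AP and PTGS2, while the points of PTGS1, PTGES3, LTA4H and LTC4S lie between -0.55 and 0.34.

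Of the cyclooxygenases, PTGS2 rose in AI heifers and PTGS1 was not called in any group. In AI heifers PTGS2 went from 1.26, 1.79 and 6.44 CPM (lowest, median, highest) on D55 to 3.03, 6.22 and 28.7 CPM on D105. The days overlapped, and the highest D105 values were those of heifers 648 and 606 (28.7 and 26.4 CPM). PTGS2 thus had a log2 fold change of 1.92 ± 0.54 (SE, n = 8, adjusted p = 0.0295). The call was lost with heifer as a block (log2 fold change 1.60, adjusted p = 0.0583), and also without heifer 590, 606 or 648 (adjusted p = 0.0662, 0.126 and 0.128, log2 fold changes 1.86, 1.51 and 1.44). In IVP-Normal heifers PTGS2 went from 1.36, 2.27 and 5.18 CPM to 3.11, 6.12 and 13.1 CPM. That log2 fold change was 1.495 ± 0.42 (SE, n = 6, unadjusted p = 0.00338 in the edgeR fit, adjusted p = 0.0944). In IVP-LOS heifers PTGS2 went from 0.529, 1.59 and 2.60 CPM to 0.912, 3.29 and 20.0 CPM, with heifer 637 as the highest on D105. The log2 fold change was 1.68 ± 0.51 (SE, n = 9, unadjusted p = 0.00396 in the edgeR fit, adjusted p = 0.159), and it was 1.15 without heifer 637 (adjusted p = 0.283). In all, PTGS2 was higher on D105 in 19 of 23 heifers. PTGS1 stayed between 1.249 and 3.71 CPM in all 46 libraries, with log2 fold changes of -0.19 ± 0.18, 0.14 ± 0.21 and 0.11 ± 0.22 (SE) in AI, IVP-Normal and IVP-LOS heifers. PTGS1 and the receptor gene PTGER2 overlap another gene in a later RefSeq assembly. Their counts may be affected by such an overlap, which was not tested.

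Neither terminal synthase was called between the days by the edgeR quasi-likelihood test, which PTGES entered only without the expression filter. PTGES, the inducible prostaglandin E synthase, was near the detection limit, with 0 to 11 reads per library, and was kept by the expression filter in no comparison. It had 0 reads in 19 of 23 D55 libraries and in 7 of 23 D105 libraries. By group its reads summed to 4 on D55 and 25 on D105 in AI heifers, of which 11 were in heifer 609 alone. The sums were 1 and 12 reads in IVP-Normal heifers and 0 and 18 reads in IVP-LOS heifers. A count of 0 allows up to 3 reads in a library, about 0.13 CPM, so a lower level on D55 could not be told from absence in a single library. Without the filter PTGES was called by edgeR in 0 of the 3 groups (adjusted p = 0.0953, 0.357 and 0.0812) and by DESeq2 in IVP-LOS heifers (adjusted p = 0.0374). PTGES3, a cochaperone of HSP90 also described as a cytosolic prostaglandin E synthase, was read at 150 to 341 CPM in all libraries. Its log2 fold changes were -0.10 ± 0.05, 0.15 ± 0.18 and 0.03 ± 0.08 (SE) in AI, IVP-Normal and IVP-LOS heifers, none past the test. The highest value, 341 CPM, was in heifer 633 on D105, next to 224 CPM in the next IVP-Normal library.

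**Figure D3:**
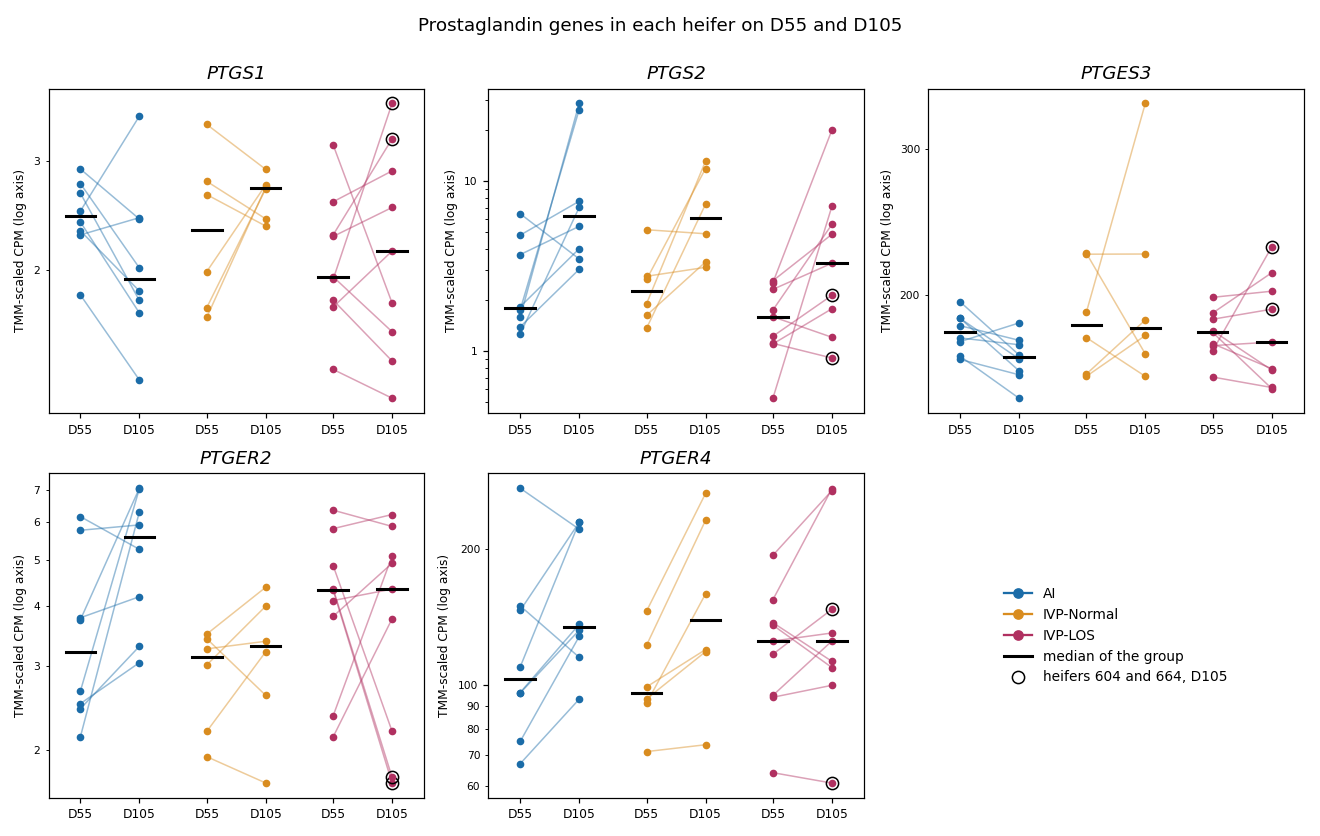
Levels of PTGS1, PTGS2, PTGES3, PTGER2 and PTGER4 (TMM-scaled CPM, log axes of different span) in each heifer on D55 and D105, with lines joining the libraries of the same heifer and a bar at the group median. PTGS2 was higher on D105 in 19 of 23 heifers and PTGER4 in 18 of 23, and the circled heifers 604 and 664 had 1.71 and 1.76 CPM of PTGER2 on D105.

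Of the receptors, PTGER4 was higher on D105 in 18 of 23 heifers and in 6 of 6 IVP-Normal heifers, where 7.50% of all genes tested were higher in every heifer of that group. In IVP-Normal heifers it went from 71.4, 96.2 and 146 CPM (lowest, median, highest) on D55 to 73.9, 139 and 265 CPM on D105, and the days overlapped. The log2 fold change was 0.63 ± 0.27 (SE, n = 6, unadjusted p = 0.0389 in the edgeR fit, adjusted p = 0.332). With heifer as a block it was 0.54 and was called (adjusted p = 0.0284). The block called 2, 3 and 1 of the 9 genes in AI, IVP-Normal and IVP-LOS heifers, where it called 17.1, 5.50 and 1.07% of all genes. In AI heifers PTGER4 went from 67.1, 103.04 and 272 CPM to 93.2, 134 and 229 CPM, with a log2 fold change of 0.35 ± 0.27 (SE). In IVP-LOS heifers the medians were 125.13 and 125.17 CPM, 6 of 9 heifers were higher on D105 and the log2 fold change was 0.26 ± 0.26 (SE). PTGER2 went from 2.13, 3.20 and 6.15 CPM to 3.05, 5.58 and 7.04 CPM in AI heifers, where 7 of 8 were higher on D105. That log2 fold change was 0.53 ± 0.25 (SE, unadjusted p = 0.0498 in the edgeR fit, adjusted p = 0.220), beside 0.15 ± 0.24 in IVP-Normal and -0.08 ± 0.28 in IVP-LOS heifers.

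The day changes were then compared between the groups. On the log2 scale the fold change of ALOX5 was larger by 1.39 ± 0.88 (SE) in IVP-LOS than in AI heifers, by 1.12 ± 0.95 in IVP-Normal than in AI heifers and by 0.27 ± 0.96 in IVP-LOS than in IVP-Normal heifers. For ALOX5AP these differences were 0.25 ± 0.63, 0.45 ± 0.48 and -0.21 ± 0.74, and for PTGS2 they were -0.23 ± 0.75, -0.41 ± 0.74 and 0.18 ± 0.71. With heifer as a block some of these turned in direction, with no call in either fit. ALOX5AP turned to -0.48 between IVP-LOS and AI heifers (adjusted p = 0.674 in the edgeR fit with the block). PTGS2 turned to -0.20 between IVP-LOS and IVP-Normal heifers (adjusted p = 0.99995 in that fit). ALOX5AP kept its direction between IVP-LOS and IVP-Normal heifers, at -0.83 (adjusted p = 0.99995 in that fit). LTA4H turned from 0.01 to -0.03 between IVP-Normal and AI heifers (adjusted p = 0.975 with the block). In all 3 differences of the day change the edgeR fit called 0 of the 9 genes, where 0.00% of all genes were called. None of the 9 genes was below 0.05 before adjustment (0 of 9 in each), where 4.96, 3.39 and 0.828% of all genes were in the differences of IVP-LOS and AI, of IVP-Normal and AI and of IVP-LOS and IVP-Normal heifers. The edgeR and DESeq2 likelihood ratio tests also called 0 of these genes. The calls of ALOX5AP in AI and IVP-Normal but not in IVP-LOS heifers were therefore not shown to differ between groups. Only the IVP-Normal day change stayed within the set marked New. Group and library set thus cannot be told apart in the differences that involve IVP-Normal heifers.

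Markers of several blood cell types moved with the day as well. Of the 6 neutrophil markers tested, 6 were called higher on D105 in AI heifers, 4 in IVP-Normal heifers and 0 in IVP-LOS heifers by the edgeR quasi-likelihood test. In IVP-LOS heifers 4 of the 6 had an unadjusted p under 0.05 in that fit. Their summed level went from 580 to 1478 CPM on D55 to 1759 to 4849 CPM on D105 in AI heifers, from 358 to 1015 CPM to 1055 to 5182 CPM in IVP-Normal heifers, and from 437 to 1416 CPM to 310 to 12290 CPM in IVP-LOS heifers. Of the eosinophil markers, SIGLEC8 was called higher in AI and IVP-Normal heifers (1 of 3 tested in each), the basophil and mast cell markers GATA2 and MS4A2 in AI heifers (2 of 4 tested), and the monocyte markers CD14 and CD68 in AI heifers (2 of 7). GATA2 and MS4A2 had medians of only 4 and 3 reads over the 46 libraries. FCER1A, another gene of the basophil list, had a median of 141.5 reads. Its median went from 6.78 CPM on D55 to 5.47 CPM on D105 over all heifers. Of the 4 basophil markers tested in AI heifers, 3 had a log2 fold change above 0. In IVP-Normal and IVP-LOS heifers 1 gene of that list was tested, with log2 fold changes of -0.22 and -0.43. The T cell marker CD28 was called higher in AI heifers (1 of 7, log2 fold change 0.47 ± 0.12, SE) and the cytotoxic cell marker GZMB in IVP-Normal heifers (1 of 5, 2.11 ± 0.46). GZMB was the only 1 of the 5 cytotoxic cell markers with a log2 fold change above 0 in IVP-Normal heifers, where their median was -0.21. PRG3, the eosinophil granule gene of the list, had 0 reads in 13 libraries and 34 at most, the neutrophil marker CD177 had 16 reads at most, and EPX and CSF3R were not analysed here. Summed eosinophil markers went from 29.9 to 53.4 CPM to 43.1 to 137 CPM in AI heifers, from 24.7 to 78.5 CPM to 42.4 to 163 CPM in IVP-Normal heifers and from 32.6 to 67.4 CPM to 38.4 to 216 CPM in IVP-LOS heifers. The 3 eosinophil markers tested had a log2 fold change above 0 in each group, but by different amounts. The median of SIGLEC8 over all heifers went from 13.0 CPM on D55 to 33.0 CPM on D105. That of IL5RA went from 10.04 to 13.9 CPM and that of CCR3 from 21.98 to 21.94 CPM. The edgeR fit called 0 of 5 platelet, 0 of 6 B cell and 0 of 3 red cell markers between the days in each group, with 0, 0 and 0 platelet, 1, 2 and 0 B cell and 1, 0 and 0 red cell markers at an unadjusted p under 0.05 in AI, IVP-Normal and IVP-LOS heifers. Summed platelet markers ran from 325 to 2201 CPM on D55 and from 253 to 1512 CPM on D105 in heifers other than 604 and 664. The part of these markers in the day change of ALOX5, ALOX5AP and PTGS2 was not tested. In bulk blood RNA, fewer cells of a type and less RNA per cell cannot be told apart.

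**Figure D4:**
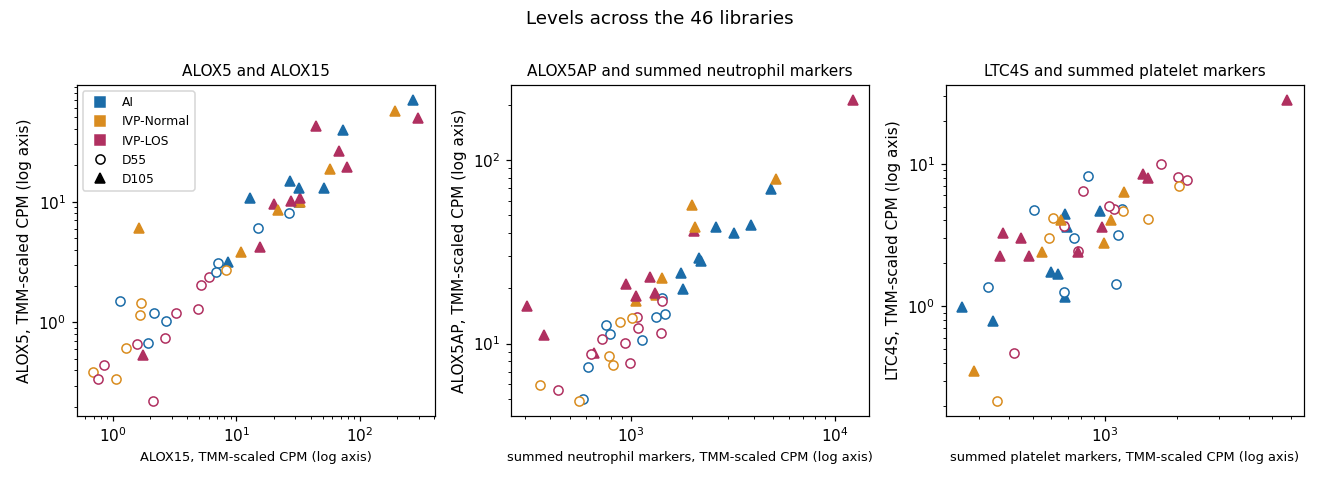
Level of ALOX5 against that of ALOX15, of ALOX5AP against the summed neutrophil markers and of LTC4S against the summed platelet markers in the 46 libraries (TMM-scaled CPM, log axes), with open circles for D55, triangles for D105 and colours for the groups. Most D105 triangles lie to the upper right in the ALOX5 and ALOX5AP panels, heifer 637 is the far point at 12290 CPM of neutrophil markers, and heifer 604 on D105 is the far point at 5789 CPM of platelet markers.

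Across the 46 libraries, after the mean of each group and day was taken off, the genes closest to ALOX5 in log2 CPM were ALOX15, the 15-lipoxygenase (Pearson r = 0.886), and HPGD, the enzyme that inactivates prostaglandins (r = 0.856). ALOX15 ran from 0.690 to 26.5 CPM on D55 and from 1.63 to 297 CPM on D105. The genes closest to ALOX5AP were S100A12 (r = 0.896), a calgranulin of neutrophils, and NFAM1 (r = 0.895). Those closest to LTC4S were DNM3 (r = 0.834) and LY6G6F (r = 0.826), both known from platelets and megakaryocytes. PTGES3 lay closest to CCT4 (r = 0.938), a chaperonin subunit, and to HSP90AB1 (r = 0.907), the HSP90 that it binds. PTGS2 lay closest to BACH1 (r = 0.817) and SGK1 (r = 0.810), PTGER4 to CD244 (r = 0.889) and ARL6IP1 (r = 0.882), and PTGER2 to SSFA2 (r = 0.852) and CHST11 (r = 0.833). LTA4H lay closest to RNASE4 (r = 0.803) and FRAT1 (r = 0.784), and PTGS1 to PLD4 (r = 0.659) and EBI3 (r = 0.607), so PTGS1 had the weakest likeness of the 9. These r values describe n = 46 libraries in which each heifer appears on both days and in which likeness can come from shared cell makeup, with 13228 genes searched.

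The levels of the 9 genes were also set beside the summed markers of 10 cell type lists, 90 pairs in all, and the pairs given here were chosen after their values were seen. Without taking off group means, ALOX5AP and the neutrophil markers had r = 0.894 over the 46 libraries, 0.831 within D55 and 0.902 within D105 (n = 23 each). ALOX5AP and the eosinophil markers had r = 0.836 over all, 0.464 within D55 and 0.798 within D105. LTC4S and the platelet markers had r = 0.809 over all, 0.723 within D55 and 0.882 within D105, and LTC4S and the red cell markers had 0.708, 0.629 and 0.775. For ALOX5 the list with the highest r changed with the libraries used. It was the eosinophil list over all (0.737, with 0.217 within D55 and 0.634 within D105), the neutrophil list within D55 (0.608, with 0.605 over all and 0.359 within D105) and the basophil and mast cell list within D105 (0.693, with 0.556 over all and 0.391 within D55). Of the other 6 genes, PTGER2 had both the highest and the lowest r over all libraries, 0.740 with monocyte markers and -0.740 with B cell markers. These are descriptions of log2 CPM across libraries that share cell makeup, heifers and days.

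The other genes of the pathway, a list of 51 of which 44 were in the table, were then counted between the days. In AI heifers 7 of 32 tested were called (21.9%, 6 higher and 1 lower), beside 9.95% of all genes. In IVP-Normal heifers 4 of 32 were called (12.5%, all higher), beside 2.45%, and in IVP-LOS heifers 2 of 33 (6.06%, both higher), beside 0.251%. The median log2 fold change of the list was -0.003, -0.05 and -0.02 in these groups. The list was chosen with earlier results of these data known, so these shares are descriptions. Among the genes listed under release of arachidonic acid, the diacylglycerol lipases DAGLA and DAGLB were called higher in AI and in IVP-Normal heifers. Their log2 fold changes were 1.78 ± 0.35 and 1.38 ± 0.20 (SE) in AI heifers and 2.17 ± 0.45 and 1.43 ± 0.27 in IVP-Normal heifers. The phospholipase PLA2G4F was called higher in AI heifers (1.24 ± 0.23). That made 3 of 8 and 2 of 8 genes tested in AI and IVP-Normal heifers. ALOX15 was called higher in all 3 groups, by 2.99 ± 0.76, 4.42 ± 0.98 and 4.43 ± 0.73 on the log2 scale in AI, IVP-Normal and IVP-LOS heifers. HPGD was also called higher in all 3, by 2.95 ± 0.60, 3.95 ± 0.68 and 4.17 ± 0.65. PTGDR, a receptor of prostaglandin D2, was the only gene of the list called lower between the days, in AI heifers (log2 fold change -0.59 ± 0.14, adjusted p = 0.00897), and 1 of 5 prostanoid synthases was called there, higher. In the edgeR fit 0 of 3 leukotriene receptors were called in each group, with 1, 0 and 0 at an unadjusted p under 0.05 in AI, IVP-Normal and IVP-LOS heifers. In IVP-LOS heifers 0 of 8 genes listed under release of arachidonic acid were called, with 2 at such a p.

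Group comparisons within a day gave no call. On D55 and on D105, 0 of the 9 genes were called between AI, IVP-Normal and IVP-LOS heifers in any of the 6 comparisons, where 0.00% of all genes were called by the edgeR quasi-likelihood test, and the edgeR and DESeq2 likelihood ratio tests also called 0 of these genes. Before adjustment, 1, 2 and 2 of the 9 genes had a p under 0.05 on D55 (IVP-Normal against AI, IVP-LOS against AI, IVP-LOS against IVP-Normal), where 9.92, 7.74 and 5.19% of all genes had such a p. On D105 the counts were 2, 1 and 0 of 9, where 9.57, 5.76 and 3.24% of all genes did. ALOX5 on D55 was lower in IVP-Normal (median 0.883 CPM) and IVP-LOS heifers (median 0.743 CPM) than in AI heifers (median 2.07 CPM), with log2 fold changes of -1.45 ± 0.61 and -1.55 ± 0.52 (SE, unadjusted p = 0.0297 and 0.00840 in the edgeR fit, adjusted p = 0.4932 and 0.6359). The ranges overlapped, as AI heifers on D55 ran from 0.674 to 8.12 CPM. PTGS2 on D55 had a log2 fold change of -0.79 ± 0.37 in IVP-LOS against AI heifers (adjusted p = 0.645). On D55 PTGER2 and LTA4H differed between IVP-LOS and IVP-Normal heifers by 0.57 ± 0.24 and 0.20 ± 0.07 on the log2 scale (adjusted p = 0.839 for both). On D105 PTGES3 and PTGER2 differed between IVP-Normal and AI heifers by 0.33 ± 0.15 and -0.70 ± 0.24 (adjusted p = 0.514 for both), a comparison in which group and library set cannot be told apart. LTC4S on D105 was 1.52 ± 0.57 higher on the log2 scale in IVP-LOS than in AI heifers (adjusted p = 0.754), with medians of 3.28 and 1.71 CPM and heifer 604 at 27.9 CPM. In the same comparison 5 of 5 platelet markers had a log2 fold change above 0, with a median of 1.16, and 3 of 5 had an unadjusted p under 0.05 in the edgeR fit, with 0 called. Their part in the value of LTC4S was not tested.

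Heifers 604 and 664 carried the largest fetuses of the IVP-LOS group, and the study followed them also because their D105 transcriptomes clustered away from the others, so their D105 comparison is not independent of the way they were chosen. On D55, 0 of the 9 genes were called against the other 21 heifers by edgeR or DESeq2, and 0.0179% of 16733 genes were called. Before adjustment 0 of the 9 genes had a p under 0.05 in the edgeR fit, where 4.72% of all genes did. On D105, 2 of 9 were called, where 21.1% of 16841 genes were called. LTC4S was at 27.9 CPM in heifer 604 and 2.40 CPM in heifer 664, with 0.351, 3.02 and 8.51 CPM (lowest, median, highest) in the other 21. Only heifer 604 lay above that range. The log2 fold change was 2.18 ± 0.62 (SE, n = 2 and 21, adjusted p = 0.0175 in the edgeR fit), and it was -0.46 without heifer 604 (adjusted p = 0.793) and 3.06 without heifer 664 (adjusted p = 0.0117). PTGER2 was at 1.71 CPM in heifer 604 and 1.76 CPM in heifer 664, with 1.71, 4.34 and 7.04 CPM in the others, of which heifer 519 was as low. On D55 the same heifers had 4.32 and 4.35 CPM of PTGER2. The log2 fold change was -1.36 ± 0.43 (SE, adjusted p = 0.0285 in the edgeR fit), lost without heifer 604 or 664 (adjusted p = 0.169 and 0.178) and against the other IVP-LOS heifers alone (log2 fold change -1.42, adjusted p = 0.0510). Against those heifers the LTC4S call was lost too (1.78, adjusted p = 0.121).

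The remaining genes of the pair on D105 did not pass the test. PTGS2 was 0.912 and 2.13 CPM in heifers 604 and 664, with 1.21, 5.43 and 28.7 CPM in the others (log2 fold change -2.42 ± 1.05, adjusted p = 0.0959 in the edgeR fit). LTA4H was 30.6 and 32.9 CPM, below the 33.6 to 78.3 CPM of the others (-0.62 ± 0.23, adjusted p = 0.0554 in the edgeR fit). PTGS1 was 3.71 and 3.25 CPM, with 3.53 CPM the highest of the others (0.65 ± 0.28, adjusted p = 0.0933 in the edgeR fit). Platelet markers summed to 5789 CPM in heifer 604 on D105, to 776 CPM in heifer 664 and to 253 to 1512 CPM in the other 21, so heifer 604 alone lay above the others, although 4 of 5 were called higher in the pair, among them PF4 and TUBB1. Red cell markers, of which HBB was called higher, summed to 591 and 136 CPM in heifers 604 and 664 and to 153 CPM at most in the others, again with heifer 604 alone above them. Of the neutrophil markers 5 of 7 and of the monocyte markers 6 of 7 were called lower in the pair, and 3 of 6 B cell markers were called higher. Summed neutrophil markers (310 and 374 CPM, against 661 or more) and monocyte markers (127.6 and 105.02 CPM, against 224 or more) were below the other 21 in both heifers. Of the pathway list, 4 of 8 genes under release of arachidonic acid were called lower in the pair. So were 1 of 5 prostanoid synthases and 1 of 3 leukotriene receptors. Of the other lipoxygenases and partners 1 of 6, COTL1, was called higher. COTL1 was at 5845 CPM in heifer 604 and 1507 CPM in heifer 664, with a median of 1842 CPM in the other 21. Only heifer 604 thus lay above that median. Over all genes 9.48% were called lower and 11.6% higher. The part of these markers and of the reads on no feature in the values of LTC4S and PTGER2 was not tested.

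Levels also differed between heifers of the same group. In a test of all heifers within their groups over both days, 3 of 9 genes were called, PTGER4 (adjusted p = 4.14e-05, edgeR), LTC4S (7.12e-05) and ALOX5 (0.00685), where 44.0% of 16487 genes were called, a larger share than 3 of 9. ALOX5AP did not pass (adjusted p = 0.0525). Without heifers 604, 637 and 664 the same 3 genes were called (adjusted p = 0.000212, 3.91e-06 and 0.0113). LTC4S was lowest in IVP-Normal heifer 519 on both days (0.216 and 0.351 CPM), and without this heifer it was still called (adjusted p = 0.000731). IVP-LOS heifer 602 held the highest D55 level of LTC4S (10.0035 CPM) and the second highest on D105 (8.51 CPM). PTGER4 was lowest in IVP-LOS heifer 664 on both days (64.1 and 60.8 CPM), and IVP-LOS heifer 512 was second highest on both (193 and 269 CPM). IVP-LOS heifer 637 (154 and 271 CPM) and AI heifer 590 (272 and 221 CPM) were also among the high ones on both. ALOX5 was lowest on D55 in heifer 663, which on D105 had the highest level of its group.

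**Figure D5:**
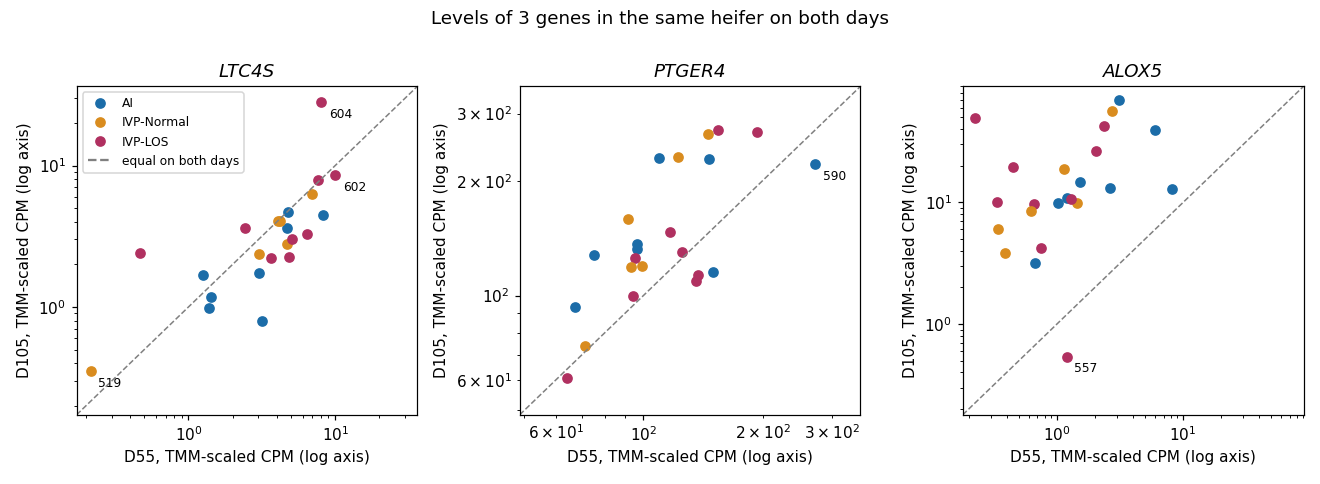
Level of LTC4S, PTGER4 and ALOX5 on D105 against that on D55 in the same heifer (TMM-scaled CPM, log axes, 1 point per heifer, colour by group, dashed line at equal levels). LTC4S and PTGER4 lie along the line, with heifer 519 at the bottom and heifer 604 at the top for LTC4S, while ALOX5 lies above it in 22 of 23 heifers, all but 557.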

How the data were processed

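The authors trimmed the paired reads, aligned them to ARS-UCD1.2 with HISAT2 2.1.0 and counted reads per NCBI gene with HTSeq (union mode); per the labels, raw counts were deposited. Whether strand was used in counting is not given in the sources used here, and PTGS1 and PTGER2 overlap another gene in a later RefSeq assembly. Groups came from the labels, and heifers are separate animals. Genes passing filterByExpr (minimum count 10) in the libraries compared were tested with edgeR 4.0.16 (R 4.3.3, TMM, quasi-likelihood F-test, 15 comparisons), without a heifer block. DESeq2 1.42.0, the likelihood ratio test, upper-quartile scaling, no filter, heifer as a block and left-out heifers were alternatives. Deviations of the libraries of a heifer correlated in 23 of 23 heifers (mean r 0.517, range 0.325 to 0.772; different heifers -0.0230), and they come from the same animal. Tests were run on simulated counts that gave all genes the same dispersion and, for the day change, no level shared within a heifer. That run cannot show how the tests behave on these paired libraries. Every member was described. A member was named in each comparison where its adjusted p was at most 0.05 or its unadjusted p was under 0.05. The members and the pathway and marker lists were chosen with earlier results of these data known. The floor given for libraries without a read of a gene covers counting error only. Each SE is the size of the log2 fold change divided by the square root of F in the quasi-likelihood test. It therefore includes the spread between libraries as well as counting error. Reads on no feature were left out of library sizes. Sequences were not used here.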

Additional observations from a re-analysis of the deposited data

Results flagged for a closer look

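In 10 of 59 sets of libraries (a gene in a group on a day), the highest library lay far from its neighbours by Dixon's ratio at the 95% level. That level assumes normally spread values, and the ratio was taken on unlogged CPM. The share of sets flagged by chance is therefore not known, and the flags are descriptions. Heifer 637 on D105 stood out among the IVP-LOS heifers for PTGS2 (20.0 CPM, next 7.11) and for ALOX5AP (211 CPM, next 40.9), in the library with the highest neutrophil marker sum. Heifer 604 on D105 stood out for LTC4S (27.9 CPM, next 8.51), in the library with the highest platelet marker sum. Heifer 688 on D105 stood out among the IVP-Normal heifers for ALOX5 (56.8 CPM, next 18.9) and for LTA4H (78.3 CPM, next 47.8). Heifer 633 on D105 stood out for PTGES3 (341 CPM, next 224). Heifer 669 on D55 stood out for PTGS2 (5.18 CPM, next 2.76), and AI heifer 590 on D55 for PTGER4 (272 CPM, next 150). The other 2 concern PTGES, at 0.512 CPM (11 reads) in AI heifer 609 on D105 and 0.0413 CPM (1 read) in IVP-Normal heifer 688 on D55.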

How the results depend on the processing

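The number of genes called changed by over 1.5 times in 10 settings. For the day change with each heifer left out, it ranged from 2 to 3 in AI, 1 to 3 in IVP-Normal and 1 to 1 in IVP-LOS heifers. In IVP-LOS heifers the number was 2 by the edgeR likelihood ratio test, 3 by DESeq2 and 0 without heifers 604 and 664. Over all genes these settings called 227 of 15163, 422 of 24243 and 12 of 15233, and the main fit 38 of 15163. For heifers 604 and 664 on D105 the number was 0 against the other IVP-LOS heifers alone, 3 within the BACKUP libraries and 2 without heifer 637. Over all genes these settings called 1466 of 16200, 4976 of 16634 and 3765 of 16813, and the main fit 3550 of 16841. LTC4S reversed without heifer 604 (log2 fold change -0.46) and was 3.06 without heifer 664. With the paired design (heifer as a replicate block) 2, 3 and 1 genes were called between the days in AI, IVP-Normal and IVP-LOS heifers and 0 in the differences of the day change. The same fits called 17.1, 5.50 and 1.07% of all genes between the days and 0.00% in the differences. Besides PTGS2 in AI and PTGER4 in IVP-Normal heifers, the block changed no call, but it turned the direction of the uncalled differences of the day change of ALOX5AP (IVP-LOS minus AI), PTGS2 (IVP-LOS minus IVP-Normal) and LTA4H (IVP-Normal minus AI). The causes were not tested. Settings without heifer 637, or without other heifers in the test between heifers, were chosen after seeing the data. A count of the second, Ensembl-based table could not be set beside these, since its identifiers had no match in the reference table. With n = 6 to 9 heifers and PTGES at 11 reads or fewer, depth and heifer number limit small changes.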
